A study of Homo sapiens with 8 samples.

Results

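Long noncoding, antisense and host RNA genes were examined in MonoMac 6, an established human cell line derived from acute monocytic leukaemia. They were chosen by symbol alone: LINC and SNHG names, names ending in -AS or -IT, miRNA host names of the form MIR*HG, and MALAT1, NEAT1 and GAS5. The rule found 145 of the 11530 genes of the deposited table. These were 83 antisense genes, 41 LINC genes (long intergenic noncoding), 14 host genes of small nucleolar RNAs (snoRNAs), 4 miRNA host genes, 2 RNAs of nuclear bodies and 1 intronic gene. RefSeq now files 13 of them under protein-coding genes and 3 as transcribed pseudogenes, PSMD5-AS1, TP73-AS1 and ZNRD1-AS1. The protein-coding ones include LINC00094 (BRD3OS), LINC00116 (MTLN), LINC00493 (SMIM26), MMP24-AS1 (MMP24OS) and NCBP2-AS2 (NCBP2AS2). Classes follow the deposited symbols, not the current names. FAM211A-AS1, LINC00338 and LINC00888 are now SNHG29, SNHG20 and SNHG33, and LINC00599 and LINC00969 are MIR124-1HG and MIR570HG. These hosts by current name are counted here as antisense or LINC.

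Long noncoding RNAs are transcribed and processed like mRNAs but are not known to encode a protein, and they act in the nucleus, in the cytoplasm or through the act of transcription itself. Antisense genes lie on the strand opposite a coding gene and often start beside its promoter. Host genes carry snoRNAs or miRNAs in their introns or exons. The spliced snoRNA host transcript is often a substrate of nonsense-mediated decay, while the snoRNAs released from its introns guide the modification of ribosomal and spliceosomal RNA. MALAT1 and NEAT1 stay in the nucleus, in speckles and paraspeckles.

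APRIL, the TNF-family cytokine encoded by TNFSF13, was given at 100 ng/mL for 24 h to the cells of 4 libraries, and 4 control libraries were made without it. Per the labels, treated cells were kept in medium without serum, the line was grown with 10% serum, and both groups had baseline cytokines that are not named. The serum content of the control medium during the 24 h is not given in the sources used here, so serum and APRIL cannot be told apart. All libraries are of 1 cell line, and nothing in the labels states that they are independent cultures, so a p-value here is set by library-to-library spread that could be purely technical. The kit picks out poly(A) RNA and keeps no strand, so reads of overlapping antisense pairs cannot be told apart, and mature miRNAs and snoRNAs are not measured.

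Values are log2 of the authors' TMM-scaled expression (trimmed mean of M values), read here between libraries within a gene and never between genes. The 4 libraries of a group are named column 1 to column 4, in table order. A difference is the APRIL mean minus the control mean, with its standard error from limma, and 0.05 is the threshold on p. Whole reads could be worked back from the values for 143 of the 145 genes. They showed 799998 reads in all in APRIL column 3, the shallowest library, and 4691370 in APRIL column 2, the deepest. The median member had 10 reads in the first of these and 62 in the second. Of the myeloid markers, 11 were tested, including MPO, LYZ and CD33. Of these, 1 (9.09%, beside 11.9% of all genes), TYROBP, had an unadjusted p under 0.05, higher with APRIL. Among 3 T and NK cell markers and 4 B cell markers tested, none did.

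No member passed the adjusted threshold between APRIL and control, and no gene of the whole table did (0.0% of 11257 tested, smallest adjusted p = 0.3999 in limma). The filter, a linear value of at least 1 in at least 4 libraries, let through 125 of the 145 members, and 20 were too low to test. At an unadjusted p under 0.05 there were 11 of 125 members (8.8%), beside 11.9% of all genes. Higher with APRIL were 8 of them, against a background of 6.25%, and lower were 3, against 5.69%. All 4 APRIL values exceeded all 4 control values in 7 tested members (background 3.62%) and fell short of them in 1 (background 4.19%). The order of these shares was not stable. Without APRIL column 4, for example, 10.4% of members and 5.94% of all genes had a low p, and with the trends of length and GC content removed 11.5% and 8.25% did. No name in what follows marks a gene that passed the test.

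**Figure D1:**
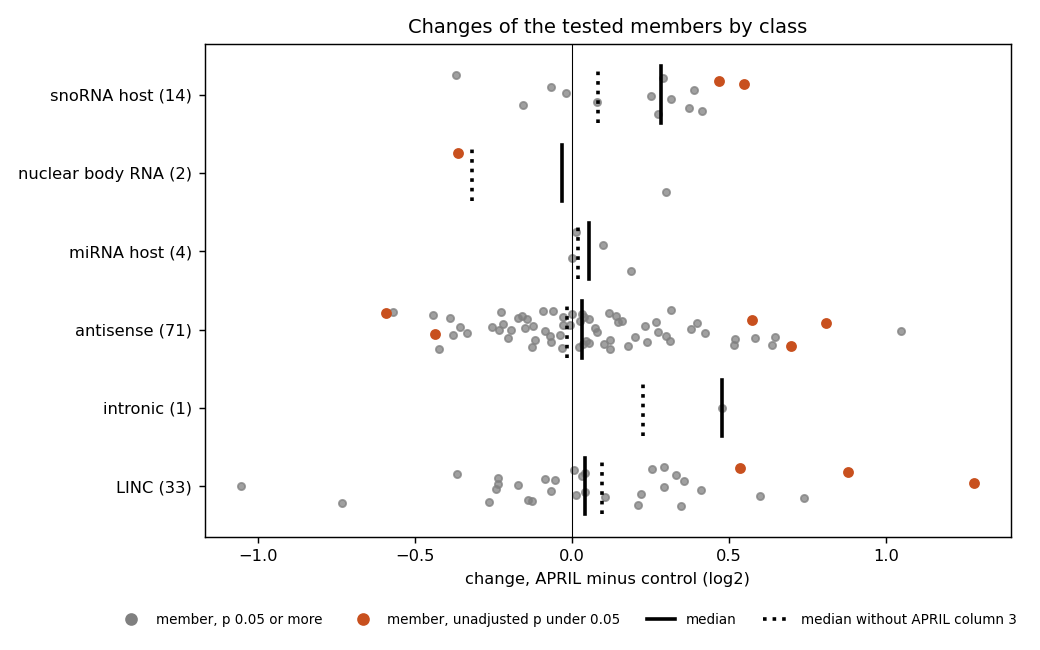
Difference between APRIL and control (log2, x axis) of each of the 125 tested members by class (y axis, number tested in brackets). Orange points have an unadjusted p under 0.05, solid bars are class medians and dotted bars are medians without APRIL column 3. The snoRNA hosts have a median of 0.28, which stands at 0.083 without that library.

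The plot of differences by class shows medians near 0 for all classes with more than 1 gene except the snoRNA hosts. The median difference was 0.043 over all 125 tested members and -0.0053 over all genes tested. It was 0.032 for 71 antisense genes, 0.041 for 33 LINC genes and 0.055 for the 4 miRNA hosts. The snoRNA hosts stood at 0.28, with 10 of 14 above 0. The value of APRIL column 3 was the highest of the 8 libraries for 11 of 14 snoRNA hosts (78.6%), against 33.6% of all genes tested. It was also the highest for FAM211A-AS1 (12.48) and LINC00338 (3.73), tested hosts by current name that are not counted in this class. The median deviation of the class from each gene's own mean was 0.53 in APRIL column 3 and between -0.026 and -0.0097 in the other APRIL libraries, against -0.20 in control columns 1 and 2 and -0.044 and -0.03 in control columns 3 and 4. Without APRIL column 3 the median of the snoRNA hosts was 0.083, with 9 of 14 above 0. Across 10809 genes the difference between groups ran with transcript length (Spearman's rho = -0.54) and GC content (rho = 0.51). These are descriptions over genes that share the same 8 libraries. With those trends removed in each library the class median was 0.077. The part of depth, length and GC content in these values was not tested.

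The snoRNA hosts have a known start signal in many cases, a run of pyrimidines beginning with C like that of ribosomal protein mRNAs. It was looked for as a run of at least 5 C or T bases opening with C within 10 bases of the start, on the gene's own strand. Of the 14 hosts, 12 have a start in the RefSeq table used here (GRCh38.p14), and 8 of those 12 held such a run, against 33.47% of all 35116 annotated starts. SNHG6 and SNHG15 have no entry there. The 60 bases around the start, 30 on each side, are shown for hosts whose values are described next, with the run in capitals.
SNHG17, chr20:38435299-38435358, minus strand: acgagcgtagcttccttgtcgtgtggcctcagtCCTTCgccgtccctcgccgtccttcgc
SNHG5, chr6:85678704-85678763, minus strand: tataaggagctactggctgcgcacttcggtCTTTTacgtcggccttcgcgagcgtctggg
SNHG7, chr9:136728155-136728214, minus strand: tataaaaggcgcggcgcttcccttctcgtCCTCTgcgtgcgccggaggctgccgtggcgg
SNHG8, chr4:118278732-118278791, plus strand: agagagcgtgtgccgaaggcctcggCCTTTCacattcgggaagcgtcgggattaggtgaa
SNHG12, chr1:28581844-28581903, minus strand: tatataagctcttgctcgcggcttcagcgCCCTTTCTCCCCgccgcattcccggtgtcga
SNHG10, chr14:95534843-95534902, minus strand, no run: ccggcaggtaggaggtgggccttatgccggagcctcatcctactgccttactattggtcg
SNHG3, chr1:28505913-28505972, plus strand, no run: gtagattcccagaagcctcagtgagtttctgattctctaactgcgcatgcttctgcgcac
GAS5, chr1:173869016-173869075, minus strand, no run: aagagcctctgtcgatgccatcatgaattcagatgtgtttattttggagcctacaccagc
A match describes these letters only, and a missing run says only that the letters are not in this window.

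A low p was found for 2 of 14 snoRNA hosts (14.3%, beside 11.9% of all genes), both higher with APRIL. SNHG17, host of snoRNAs of the SNORA71 family, stood at 9.68, 9.52, 10.26 and 9.65 in APRIL columns 1 to 4 and at 8.89, 9.33, 9.50 and 9.51 in control columns 1 to 4. The groups did not overlap, though APRIL column 2 lay only just above control column 4. The difference was 0.47 ± 0.19 (limma, unadjusted p = 0.03448, adjusted p = 0.3999), and 0.31 without APRIL column 3. SNHG10, host of a small Cajal body RNA, stood at 6.56, 6.41, 6.99 and 6.88 with APRIL and at 5.78, 6.0, 6.73 and 6.15 in control. Control column 3 lay inside the APRIL range. The difference was 0.55 ± 0.21 (unadjusted p = 0.02855, adjusted p = 0.3999).

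**Figure D2:**
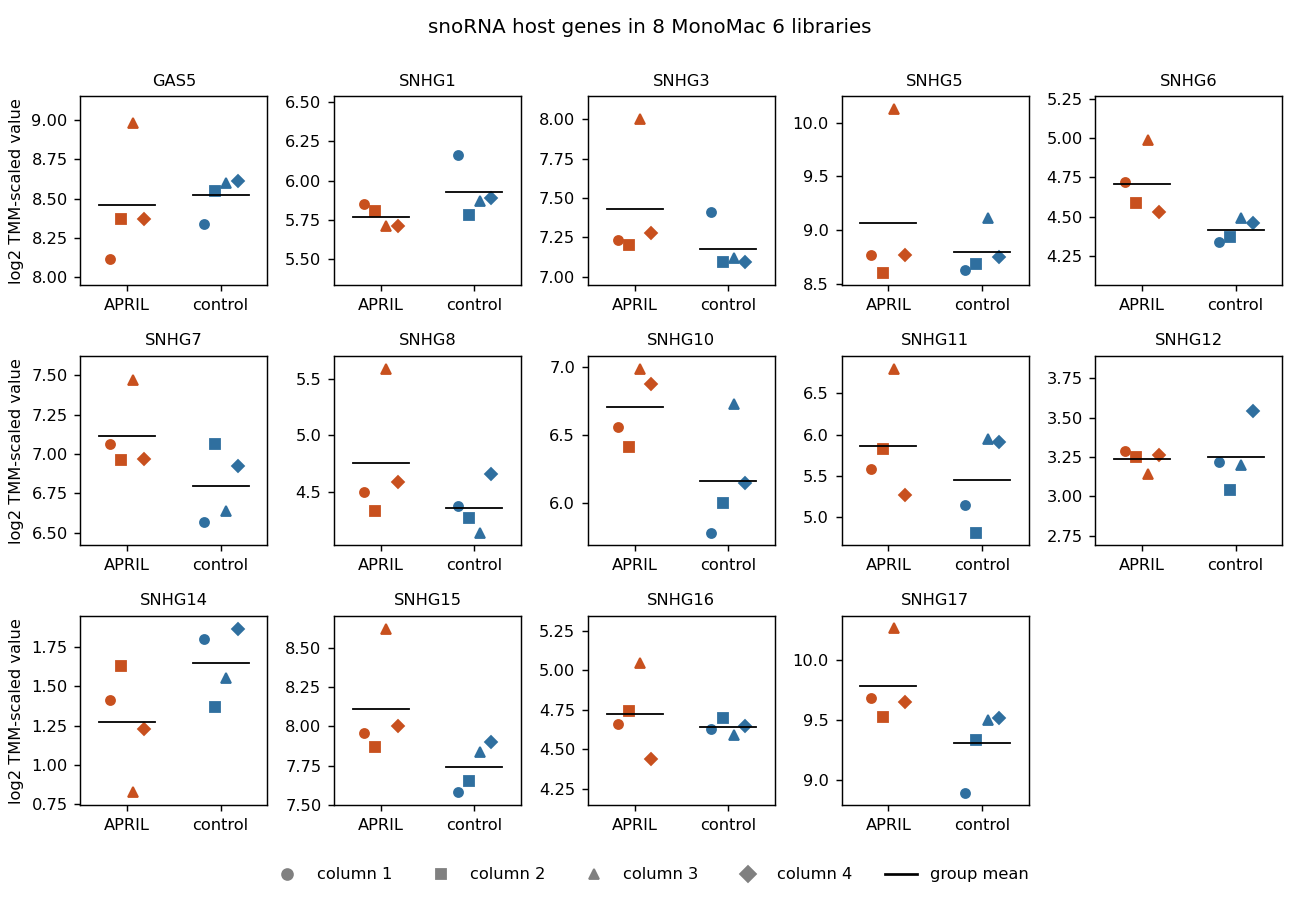
Log2 TMM-scaled values (y axis, scaled per panel) of the 14 snoRNA host genes in 4 APRIL libraries (left, orange) and 4 control libraries (right, blue), with the marker giving the column and the line the group mean. APRIL column 3 (triangle) is the highest of all 8 values in 11 panels, for example 10.13 for SNHG5.

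The panels of snoRNA hosts show the same library apart in most genes. SNHG5, host of the U50 snoRNAs, stood at 8.77, 8.60, 10.13 and 8.77 with APRIL and at 8.63, 8.68, 9.11 and 8.75 in control. APRIL columns 1 and 4 lay inside the control range and column 2 just below it. Its difference was 0.27 ± 0.30, and -0.080 without APRIL column 3. SNHG8, host of SNORA24, stood at 4.50, 4.33, 5.59 and 4.59 with APRIL and at 4.38, 4.27, 4.14 and 4.66 in control. The difference of 0.39 ± 0.26 was 0.11 without that library. SNHG3, host of the U17 snoRNAs, stood at 7.23, 7.20, 8.0 and 7.28 with APRIL and at 7.41, 7.09, 7.12 and 7.09 in control, a difference of 0.25 ± 0.19, or 0.061 without it. In all 3 genes the remaining APRIL values were among the control values or close to them.

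SNHG6 had 4.72, 4.59, 4.99 and 4.53 with APRIL, wholly above its control values of 4.34, 4.37, 4.49 and 4.46. Its difference was 0.29 ± 0.14 (unadjusted p = 0.06349, adjusted p = 0.3999). For SNHG6, removal of the length and GC trends brought the difference down to 0.067. SNHG15 averaged 8.11 ± 0.34 with APRIL and 7.74 ± 0.15 in control (SD, n = 4 each), a difference of 0.37 ± 0.17, or 0.20 without APRIL column 3. SNHG7 had 7.06, 6.96, 7.47 and 6.97 with APRIL, against 6.57, 7.06, 6.64 and 6.92 in control. Its difference was 0.32 ± 0.16, and -0.098 with the trends of length and GC content removed. SNHG11 gave 0.42 ± 0.35, or 0.10 without APRIL column 3. SNHG16, host of the SNORD1 snoRNAs, gave 0.080 ± 0.15, and its sign turned without that library, at -0.028.

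The hosts below 0 included GAS5, whose transcript is a standard substrate of nonsense-mediated decay and is known to accumulate in arrested cells. It stood at 8.12, 8.37, 8.98 and 8.37 with APRIL and at 8.34, 8.55, 8.60 and 8.61 in control. APRIL columns 2 and 4 lay inside the control range, with column 1 below it and column 3 above. The difference was -0.067 ± 0.18, or -0.24 without APRIL column 3. SNHG1, a host of several box C/D snoRNAs, had 5.85, 5.81, 5.71 and 5.71 with APRIL and 6.16, 5.78, 5.87 and 5.89 in control, a difference of -0.16 ± 0.13. SNHG14, the long imprinted transcript that runs antisense to UBE3A and hosts the SNORD115 and SNORD116 clusters, gave -0.37 ± 0.22. SNHG12 gave -0.020 ± 0.15. With APRIL column 3 the highest for GAS5 and the lowest for SNHG14, that library did not shift all hosts one way.

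The nuclear body RNAs did not move together. NEAT1, the scaffold of paraspeckles, stood at 8.10, 8.38, 8.13 and 8.56 with APRIL and at 8.71, 8.74, 8.78 and 8.41 in control. Control column 4 lay inside the APRIL range, and the other 3 control values lay above it. The difference was -0.36 ± 0.14 (limma, unadjusted p = 0.02904, adjusted p = 0.3999), and it was -0.31 without APRIL column 3. NEAT1 has the longest annotated transcript of the named members (22743 bases), and its difference was -0.038 with the trends of length and GC content removed. MALAT1, the RNA of nuclear speckles, stood at 7.90, 7.68, 10.16 and 7.39 with APRIL and at 8.35, 8.25, 7.71 and 7.63 in control. APRIL column 3 was the highest value by a wide margin, and the other APRIL values overlapped the control values. The difference was 0.30 ± 0.52, and -0.33 without that library. Of 19 paraspeckle and speckle proteins tested, 3 (15.8%, beside 11.9% of all genes) had an unadjusted p under 0.05, all lower with APRIL. They were SON (-0.39 ± 0.16), TAF15 (-0.31 ± 0.13) and MATR3 (-0.29 ± 0.13). The median of that list was -0.14. Without APRIL column 3 that median was -0.090 and TAF15 was at -0.20. With the trends of length and GC content removed, the median was -0.024, MATR3 was at -0.0061 and SON at -0.17, while TAF15 was at -0.45.

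The miRNA hosts are long primary transcripts whose precursors are cut out by DROSHA in the nucleus. Their mature products, from RefSeq (GRCh38.p14), are shown to name what each host carries. Capitals mark the seed, bases 2 to 8.
miR-155-5p of MIR155HG: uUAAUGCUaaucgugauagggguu
miR-22-3p of MIR22HG: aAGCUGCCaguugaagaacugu
miR-600 of MIR600HG: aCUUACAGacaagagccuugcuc
miR-17-5p of MIR17HG: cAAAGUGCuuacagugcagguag
miR-20a-5p of MIR17HG: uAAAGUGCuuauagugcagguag
miR-18a-5p of MIR17HG: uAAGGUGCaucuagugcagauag
miR-19a-3p of MIR17HG: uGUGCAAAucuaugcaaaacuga
miR-19b-3p of MIR17HG: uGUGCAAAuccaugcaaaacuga
miR-92a-3p of MIR17HG: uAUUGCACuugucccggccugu
Within the MIR17HG cluster, miR-17-5p and miR-20a-5p share 1 seed, and miR-19a-3p and miR-19b-3p share another.

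No miRNA host had a low p. MIR155HG, the source of a miRNA known from inflammation and leukaemia, stood at 3.53, 3.32, 4.04 and 3.31 with APRIL and at 3.48, 3.34, 3.70 and 3.29 in control, a difference of 0.098 ± 0.19. MIR17HG, the oncogenic cluster, stood at 3.07, 3.14, 3.15 and 3.19 with APRIL and at 3.59, 2.51, 2.74 and 2.94 in control, a difference of 0.19 ± 0.22. The 4 APRIL values of MIR17HG lay within the control range. MIR22HG (-0.0001 ± 0.19) and MIR600HG (0.013 ± 0.24) had differences near 0, each with a standard error that leaves room for larger ones. Of 13 genes of miRNA processing, 2 had an unadjusted p under 0.05, both lower with APRIL. Over all genes the share with such a p was 11.9%. ZCCHC11, a uridylyltransferase that acts on let-7 precursors, gave -0.45 ± 0.15, and the Argonaute gene AGO4 gave -0.50 ± 0.22. AGO4 was at -0.27 without APRIL column 3, and with the trends of length and GC content removed ZCCHC11 was at -0.22 and AGO4 at -0.27.

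Among 71 antisense genes tested, 3 were higher and 2 lower at an unadjusted p under 0.05 (7.04%, beside 11.9% of all genes). TMPO-AS1, opposite the gene of a nuclear lamina protein, stood at 6.93, 6.60, 7.37 and 6.78 with APRIL and at 6.38, 5.93, 6.59 and 6.49 in control. The groups did not overlap, with APRIL column 2 just above control column 3. The difference was 0.57 ± 0.20 (limma, unadjusted p = 0.01574, adjusted p = 0.3999). TMPO itself gave -0.11 ± 0.13. SLC25A5-AS1, opposite the gene of a mitochondrial ADP/ATP carrier, stood at 3.24, 2.92, 3.16 and 2.84 with APRIL and at 2.50, 1.81, 3.08 and 1.98 in control. These rest on few reads, 5 in APRIL column 3 and 3 in control column 2. The difference was 0.70 ± 0.27, beside 0.33 ± 0.19 for SLC25A5. MMP24-AS1, now MMP24OS and filed as protein-coding, stood at 3.10, 3.20, 4.56 and 3.41 with APRIL and at 2.39, 2.43, 3.04 and 3.17 in control. Its difference was 0.81 ± 0.33, and 0.48 without APRIL column 3.

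**Figure D3:**
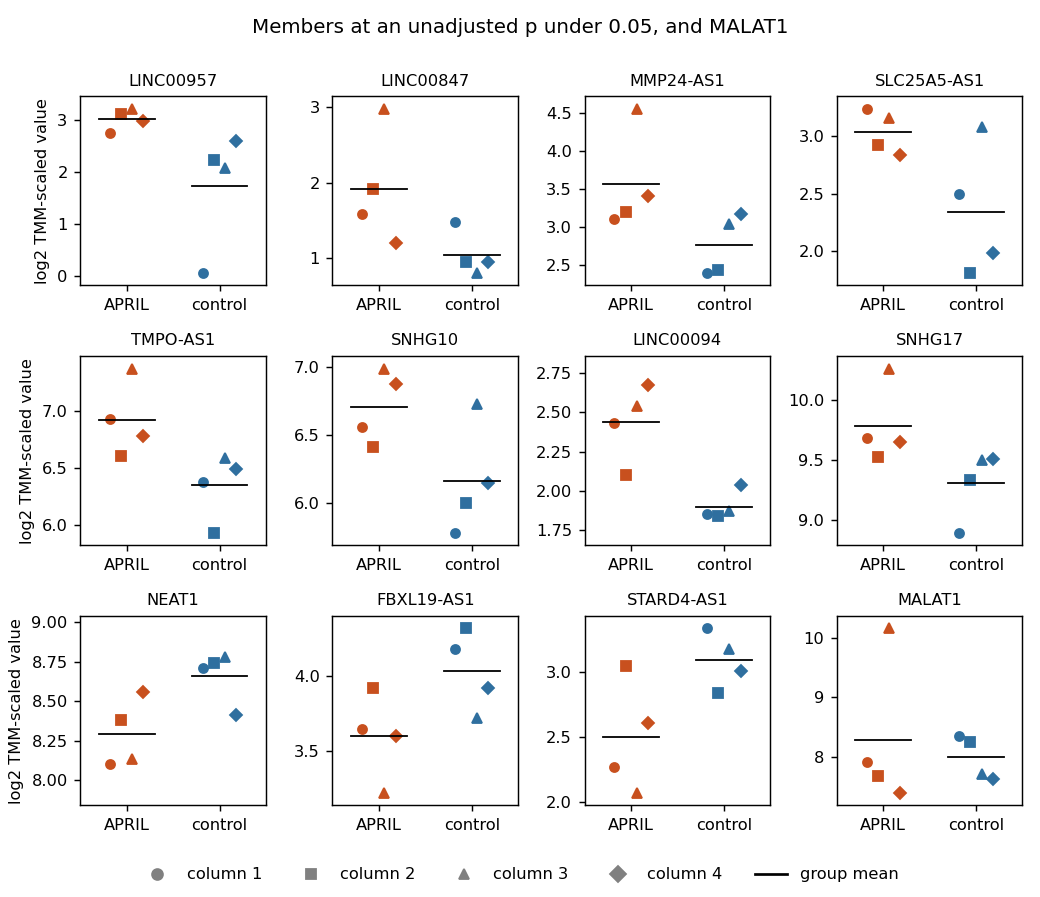
Log2 TMM-scaled values (y axis, scaled per panel) of the 11 members with an unadjusted p under 0.05, and of MALAT1, in 4 APRIL libraries (left, orange) and 4 control libraries (right, blue). Markers give the column and lines the group mean. The groups do not overlap for LINC00957, TMPO-AS1, LINC00094 and SNHG17, and control column 1 of LINC00957 is at 0.05.

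The panels of members with low p-values show 4 genes without overlap and 7 with it. On the lower side, STARD4-AS1, opposite a gene of cholesterol transport, stood at 2.27, 3.05, 2.07 and 2.61 with APRIL and at 3.34, 2.84, 3.18 and 3.01 in control. APRIL column 2 lay inside the control range. The difference was -0.59 ± 0.23 (unadjusted p = 0.02556, adjusted p = 0.3999), beside -0.23 ± 0.20 for STARD4. FBXL19-AS1 stood at 3.65, 3.92, 3.22 and 3.60 with APRIL and at 4.18, 4.32, 3.72 and 3.92 in control, a difference of -0.44 ± 0.19 between groups that overlapped. FBXL19, which encodes an F-box protein that binds CpG islands, gave 0.12 ± 0.17.

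NCBP2-AS2 and FGD5-AS1 did not reach an unadjusted p of 0.05, although their groups did not overlap. NCBP2-AS2 stood at 6.88, 7.0, 8.39 and 7.01 with APRIL and at 6.49, 6.74, 6.63 and 6.82 in control. APRIL column 3 was far above the rest. The difference was 0.65 ± 0.30, or 0.29 without that library. NCBP2, which encodes the small subunit of the nuclear cap-binding complex, gave -0.14 ± 0.12. FGD5-AS1 stood at 4.77, 4.71, 4.37 and 4.60 with APRIL and at 4.95, 4.90, 4.83 and 4.79 in control, a difference of -0.26 ± 0.13. CRHR1-IT1, classed as intronic by its symbol alone, gave 0.48 ± 0.41. It is now named LINC02210, and in GENCODE it does not overlap CRHR1. HMGN3-AS1, taken up after its values were seen because its difference of 1.05 ± 0.62 was the largest of the class, had 11, 14, 3 and 12 reads with APRIL and 6, 0, 4 and 10 in control. Control column 2 was the one library of the 8 with no read.

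The remaining antisense genes named by the same rule had no unadjusted p under 0.05. STARD7-AS1, opposite a gene of lipid transfer, stood at 5.78, 5.46, 6.19 and 5.98 with APRIL and at 5.67, 5.65, 5.48 and 4.54 in control, a difference of 0.51 ± 0.26. Control column 4 was the low value there, and STARD7 gave 0.035 ± 0.11. PXN-AS1 stood at 6.29, 6.02, 7.44 and 6.54 with APRIL and at 6.28, 5.93, 6.19 and 5.80 in control, a difference of 0.52 ± 0.27, beside -0.10 ± 0.24 for PXN, the gene of the focal adhesion protein paxillin. Without APRIL column 3 the difference of PXN-AS1 was 0.23. EPB41L4A-AS1 (0.32 ± 0.16) and VPS9D1-AS1 (0.31 ± 0.16) were also on the higher side, and VPS9D1-AS1 was at -0.12 with the trends of length and GC content removed. On the lower side were LENG8-AS1 (-0.57 ± 0.36), EMC3-AS1 (-0.42 ± 0.27) and CCDC183-AS1 (-0.36 ± 0.22), each smaller in size without APRIL column 3, at -0.26, -0.15 and -0.19. EMC3, a subunit of the membrane protein insertion complex of the endoplasmic reticulum, gave 0.29 ± 0.21, and LENG8 gave -0.14 ± 0.21.

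NCBP2-AS2 and NCBP2 start head to head, and 12 of the 43 pairs with both starts in RefSeq did so within 200 bases. The window of NCBP2-AS2 is shown because these neighbours had differences of opposite sign, a contrast lost with the trends of length and GC content removed (0.16 for NCBP2-AS2 and 0.016 for NCBP2). It is chr3:196942424-196942723, plus strand, 250 bases before and 50 from the start. Capitals run from one RefSeq start base to the other, both included, and these starts lie 146 bases apart. In GENCODE the starts of the pair lie 26 bases apart.
NCBP2-AS2: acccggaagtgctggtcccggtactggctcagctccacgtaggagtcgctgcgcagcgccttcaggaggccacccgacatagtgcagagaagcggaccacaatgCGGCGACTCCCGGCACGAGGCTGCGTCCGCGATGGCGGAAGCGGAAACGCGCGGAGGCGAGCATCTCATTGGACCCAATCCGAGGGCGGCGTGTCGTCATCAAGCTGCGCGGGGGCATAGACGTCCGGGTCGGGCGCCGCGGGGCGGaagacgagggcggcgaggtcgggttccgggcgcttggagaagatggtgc

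For 57 antisense genes the gene named by the symbol was tested too and lies on the opposite strand in GENCODE. The signs of the differences were the same in 24 of the 57 pairs, with 12 pairs both above 0 and 12 both below. In 20 pairs only the antisense gene was above 0, and in 13 only its partner. Among 17 pairs whose exons overlap by at least 10% of the antisense exon bases, 8 had the same sign, and among 40 with less overlap, 16 did. Among 32 pairs whose starts lie within 1000 bases in GENCODE, 17 had the same sign, and among 25 further apart, 7 did. No test of the pairs was made.

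**Figure D4:**
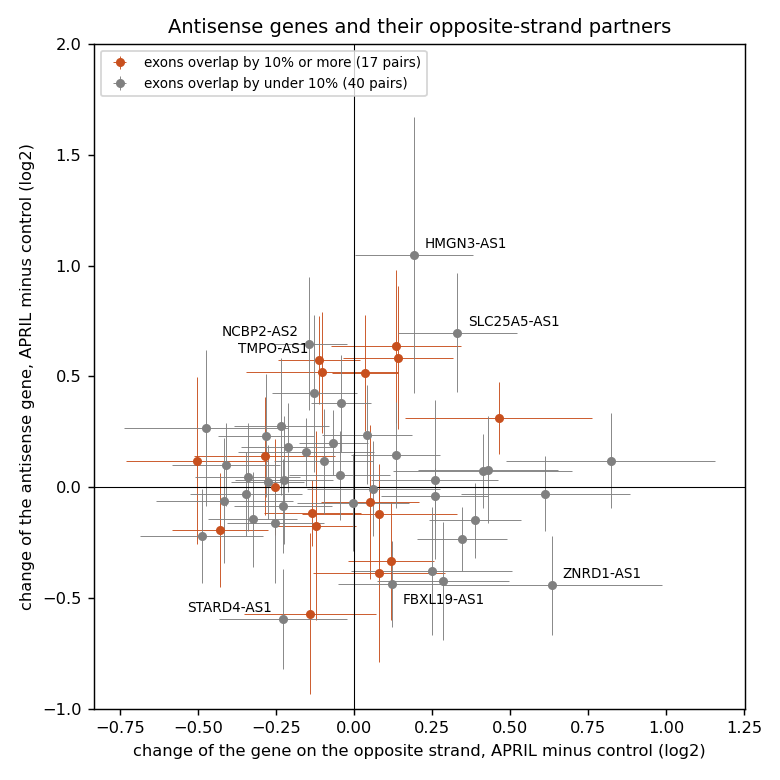
Difference of each antisense gene (y axis) against that of the gene on the opposite strand (x axis), both APRIL minus control on the log2 scale, for 57 pairs with limma standard errors as bars. Points lie in all 4 quadrants, with the same sign in 24 pairs, and orange marks the 17 pairs with more exon overlap.

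The plot of pairs shows points in every quadrant. ZNRD1-AS1 (-0.44 ± 0.22) and ZNRD1 (0.63 ± 0.35), the gene of an RNA polymerase I subunit, lay far apart in opposite directions. ZNRD1 stood at 5.62, 5.70, 7.47 and 6.06 with APRIL and at 5.74, 5.64, 5.47 and 5.48 in control. APRIL column 3 was again the highest. Of the 12 partners of named genes, PTOV1 alone had a low p, at 0.35 ± 0.14 (limma, unadjusted p = 0.03795, adjusted p = 0.3999). PTOV1-AS1 was at -0.23 ± 0.14. Other plotted partners with a low p were DHRS4, PSMG3 and TP73, higher with APRIL, and CEBPZ, MBNL1, NNT, PAN3 and UBA6, lower. A low p was found for 11.9% of all genes. With the trends of length and GC content removed the sign of PTOV1 turned, at -0.11.

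The LINC genes with a low p were 3 of 33 tested (9.09%, beside 11.9% of all genes), all higher with APRIL. LINC00957 stood at 2.75, 3.11, 3.21 and 2.97 with APRIL and at 0.05, 2.22, 2.07 and 2.58 in control. The groups did not overlap, and control column 1 was far below the rest with 1 read. The difference was 1.28 ± 0.47 (limma, unadjusted p = 0.02074, adjusted p = 0.3999), the largest of any member, and 0.72 at its smallest when 1 library was left out. LINC00094, now BRD3OS and filed as protein-coding, stood at 2.43, 2.10, 2.54 and 2.67 with APRIL and at 1.85, 1.84, 1.87 and 2.04 in control, also without overlap. Its difference was 0.54 ± 0.17 (unadjusted p = 0.01123, adjusted p = 0.3999), the smallest p of the members, and lay between 0.46 and 0.65 whichever library was left out. LINC00847 stood at 1.58, 1.92, 2.98 and 1.20 with APRIL and at 1.48, 0.94, 0.80 and 0.95 in control, a difference of 0.88 ± 0.35, or 0.53 without APRIL column 3.

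No other LINC gene had an unadjusted p under 0.05. LINC00657 is NORAD, a cytoplasmic RNA that binds Pumilio proteins. It stood at 6.49, 6.65, 6.19 and 6.47 with APRIL and at 6.95, 6.72, 6.61 and 6.58 in control. The difference was -0.26 ± 0.14 over 6849 reads, and -0.0615 with the trends of length and GC content removed. Of its 50-base words, 35.29% are shared with other genes. LINC00936 (ATP2B1-AS1) had the most negative difference, -1.05 ± 0.54, with 8, 19, 0 and 13 reads with APRIL and 12, 5, 7 and 15 in control. Without APRIL column 3, which had no read, it was -0.40. LINC00963 stood at 4.24, 4.30, 4.77 and 4.40 with APRIL, wholly above 4.0, 4.23, 4.23 and 4.21 in control. That difference was 0.25 ± 0.15.

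LINC00662 (0.41 ± 0.25) and LINC00863 (0.35 ± 0.18) were on the higher side, and LINC00342 (-0.73 ± 0.52), LINC00431 (-0.37 ± 0.43), LINC00476 (-0.24 ± 0.21) and LINC00969 (-0.24 ± 0.16) on the lower. LINC00342 shows the spread behind such values, with 5.46, 6.29, 3.94 and 6.23 with APRIL and 6.62, 5.11, 6.63 and 6.47 in control. A low library stood in each group, and without APRIL column 3 the difference was -0.22. LINC00599, the host of miR-124-1, gave -0.17 ± 0.17.

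The members that RefSeq now files as protein-coding were looked at apart. Of 13, 11 were tested, 7 of them above 0. An unadjusted p under 0.05 was found for 2 (18.2%, beside 11.9% of all genes), the LINC00094 and MMP24-AS1 described above. LINC00116, now MTLN, encodes a mitochondrial micropeptide. It stood at 1.21, 1.06, 3.14 and 1.33 with APRIL and at 0.36, 1.28, 0.68 and 1.46 in control. APRIL column 3 was the high value, and the difference of 0.74 ± 0.45 was 0.26 without it. LINC00493, now SMIM26, gave 0.36 ± 0.21, or 0.13 without that library, and LINC00341, counted by RefSeq under the nesprin gene SYNE3, gave -0.085 ± 0.12. The median of the 11 was 0.11, beside 0.040 for the 114 tested members that remain.

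Genes that act on these RNAs were listed beside them, and none passed the adjusted threshold. The shares in brackets below stand beside 11.9% of all genes with an unadjusted p under 0.05. Of 18 nonsense-mediated decay factors, 1 (5.56%) had an unadjusted p under 0.05, UPF2, at -0.49 ± 0.22. The median of the list was -0.088. Without APRIL column 3 UPF2 was at -0.27 and the median at -0.051. Of 20 genes of the nuclear RNA exosome and its adaptors, 2 (10.0%) had a low p, both lower. ZFC3H1, of the complex that hands polyadenylated nuclear RNA to the exosome, was at -0.61 ± 0.23, and the exosome subunit EXOSC8 at -0.32 ± 0.13. ZFC3H1 was at -0.40 and EXOSC8 at -0.36 without that library. Of 16 snoRNP core and assembly genes, 2 (12.5%) had a low p, both higher. RUVBL2, an assembly ATPase, was at 0.51 ± 0.16, and NHP2, a core protein of box H/ACA particles, at 0.55 ± 0.25. The median of that list was 0.057. Its sign turned without APRIL column 3, at -0.033, and with the trends of length and GC content removed, at -0.056. NHP2 was at 0.27 without that library and RUVBL2 at 0.38. With those trends removed NHP2 was at 0.14 and RUVBL2 at 0.18. Of 12 other named long noncoding RNAs, 2 (16.7%) had a low p, both higher. PVT1 was at 0.67 ± 0.23 and DANCR at 0.53 ± 0.21. PVT1 was at 0.59 and DANCR at 0.33 without APRIL column 3. With the trends of length and GC content removed, PVT1 was at 0.45 and DANCR at 0.18.

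**Figure D5:**
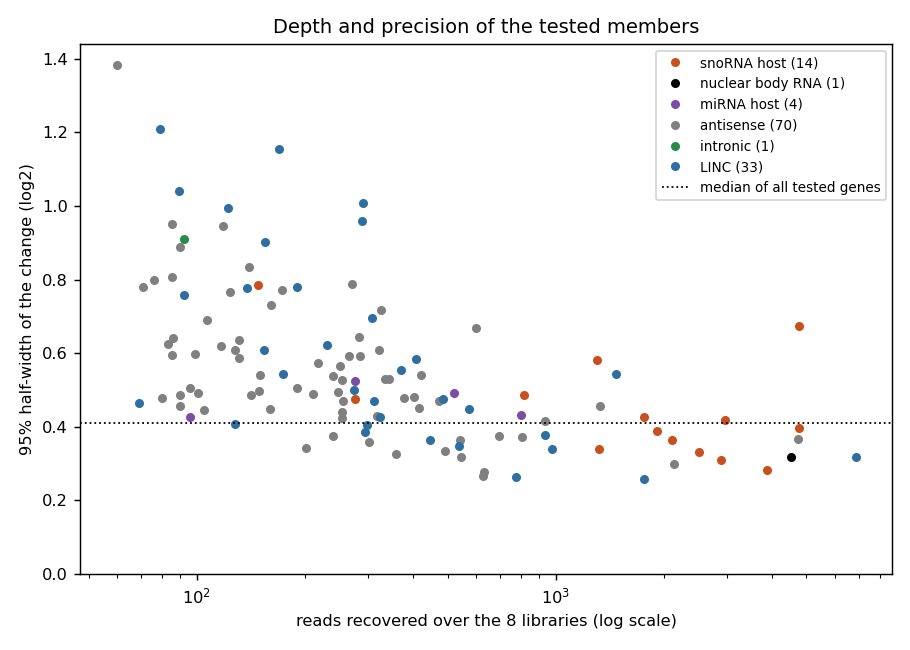
Reads recovered over the 8 libraries (x axis, log scale) and 95% half-width of the difference (y axis, log2) for the 123 tested members with recovered reads, coloured by class. The dotted line is the median half-width of all tested genes, 0.41. The members with the fewest reads lie above it.

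Most members were shallow. The median member had 240 reads over all 8 libraries, and 67 members had at least 10 reads in every library. The median 95% half-width of a difference was 0.50 for the tested members and 0.41 for all tested genes. The plot of depth and precision shows LINC and antisense genes at the shallow end and most snoRNA hosts at the deep end. SNHG5 and SNHG8 have wide intervals at their depth, and APRIL column 3 stands apart in both. Of 142 members placed in GENCODE, 36 share over 20% of their 50-base words with another gene, up to 86.52% for LINC01001, and for these the authors' counting could have split or dropped reads. The 20 untested members lay between -3.65 and 0.59 in every library. LINC00265 was the one of them whose groups did not overlap, at -2.74, -2.86, -3.65 and -2.75 with APRIL and -2.0, -2.23, -2.47 and -2.65 in control.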

How the data were processed

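RNA of 8 MonoMac 6 libraries was measured by sequencing. A single deposited table holds 11530 genes. Its deposited values are TMM-scaled per library, per the file headers, and run between -4.96 and 15.4, which makes them log2 values. A p-value and a linear fold (ratio) per gene, also deposited by the authors, served for no result. Per the submitters' processing notes, bcl2fastq and TopHat2 2.0.13 were used with build hg19. No source used here names the read counter or the annotation. All 8 per-library columns were used, and they carry a group and no replicate number.

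Differences were tested over the whole table with limma 3.58.1 in R 4.3.3 (intensity trend, robust empirical Bayes, group as the only term, two-sided, Benjamini-Hochberg adjustment, threshold 0.05). Genes with a linear value of at least 1 in at least 4 libraries were tested, 11257 in all, and 273 were left out. The fit was tested on simulated data with known changes. Whole reads were recovered by taking each value as log2 of reads plus 0.5, less log2 of a whole-number divisor per gene, plus a constant per library. This gave reads for 10786 genes (93.55%), all but MALAT1 and FAM211A-AS1 of the members, and the divisor is not gene length. The intensity trend of limma was fitted on values that carry this divisor, so it does not order genes by reads alone. Voom, listed below as an alternative, used recovered reads instead. Recovered totals cover those genes, not whole libraries.

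Symbols were matched to RefSeq (GRCh38.p14) and GENCODE v29 for names, classes, partners, length and GC content. No coordinates of the authors' build were used. Named genes were all MALAT1, NEAT1, GAS5, SNHG and MIR*HG genes, the 8 antisense or intronic and 8 LINC genes of smallest p in each direction, partners of named antisense genes, and up to 4 per list and direction at an unadjusted p under 0.05. The members and lists were chosen with earlier results of these data known. Alternatives were other filters, a pseudocount of 1, centring, leaving out libraries, quality weights, voom on recovered reads, and removal of length and GC trends. Python 3.11.15, numpy 2.4.6, pandas 2.3.3 and matplotlib 3.10.9 were used.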

Additional observations from a re-analysis of the deposited data

Results flagged for a closer look

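In a group of 4 libraries, a value was taken up here when its gap to the nearest other value as a share of the group's range exceeded Dixon's limit. Chance alone gives about 1 in 20 groups if the values are independent and of equal spread, which these libraries are not. Over all genes tested, APRIL column 3 was the highest library for 33.6% and the lowest for 32.9%. Control column 1 was the highest for 26.3% and the lowest for 25.7%. The share of such groups over all genes was not worked out, so the count below says nothing particular about the named genes. Of 152 groups of named genes, 20 had such a library, 8 of them APRIL column 3, 6 control column 1, 4 control column 2 and 2 control column 4.

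APRIL column 3 stood above the other APRIL libraries for SNHG3 (8.0, the others 7.20 to 7.28), SNHG5 (10.13, the others 8.60 to 8.77), NCBP2-AS2 (8.39, the others 6.88 to 7.01), LINC00116 (3.14, the others 1.06 to 1.33) and NHP2 (8.38, the others 7.20 to 7.38). It stood below them for PTOV1-AS1 (4.95, the others 5.35 to 5.38), LINC00599 (6.10, the others 6.58 to 6.62) and PXN (2.52, the others 3.48 to 3.49). This library had the fewest recovered reads, 799998, and the lowest quality weight, 0.117. The part of its depth in these values was not tested.

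Control column 1 stood above the other control libraries for SNHG3 (7.41), TMPO (6.79), SON (7.82) and ZCCHC11 (9.88), and below them for LINC00963 (4.0) and FBXL19 (7.18). Control column 2 stood above for LINC00863 (4.33), LINC00341 (4.96) and AGO4 (6.18), and below for LINC00342 (5.11). Control column 4 stood above for LINC00094 (2.04) and below for STARD7-AS1 (4.54).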

How the results depend on the processing

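No paired analysis was possible because the table's columns carry a group and no replicate number. The edgeR test listed as an alternative was not run, since the deposited unit is log2. The number of genes called was 0 in every fit except limma with library quality weights, where it was 4, none of them a member. The 11 members with an unadjusted p under 0.05 became 22 with quality weights (17.6%, beside 17.0% of all genes), 6 of 123 with voom (4.88%, beside 10.9%), and 5 of 66 among members with at least 10 reads in every library (7.58%, beside 11.9%), a setting chosen after seeing the data. Leaving out 1 library gave 5 to 18 members, with 5 without control column 2 (4%, beside 9.38% of all genes), 7 without control column 1 (5.6%, beside 4.5%) and 18 without APRIL column 2 (14.4%, beside 20%). Besides the fits with quality weights and without control column 1, the members' share was above that of all genes without APRIL column 4 (10.4%, beside 5.94%), without control column 3 (8%, beside 7.22%), without APRIL column 3 and control column 1 together (10.4%, beside 7.52%) and with length and GC trends removed (11.5%, beside 8.25%). It was below in the other alternatives. The median of the snoRNA hosts was 0.059 without APRIL column 3 and control column 1 together, 0.052 with quality weights, and 0.083 to 0.36 with 1 library left out, the lowest without APRIL column 3. The median of the LINC genes was 0.11 with a stricter filter, and -0.014 to 0.16 with 1 library left out, the highest without control column 1. The median of all members stayed between 0.023 and 0.081 in all fits.

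Of 1202 values of 76 named genes under the alternatives, 1154 kept their sign and 48, in 23 genes, did not. None passed the adjusted threshold. Signs turned without APRIL column 3 and control column 1 together for MALAT1 (-0.20), MIR155HG (-0.058), MIR22HG (0.18), MIR600HG (-0.17), SNHG12 (0.0027), SNHG16 (-0.034), SNHG5 (-0.13) and PXN (0.026). They turned with quality weights for MIR22HG (0.13), MIR600HG (-0.20), SNHG11 (-0.051), SNHG5 (-0.075), LINC00599 (0.041), VPS9D1 (-0.024) and PXN (0.025). Voom turned MIR22HG (0.029), MIR600HG (-0.0034) and PXN (0.019), and a pseudocount of 1 turned MIR600HG (-0.0019). Removing length and GC trends turned SNHG7 (-0.098), VPS9D1-AS1 (-0.12), LINC00493 (-0.040), LINC00341 (0.096), TMPO (0.044), NCBP2 (0.016), FBXL19 (-0.18) and PTOV1 (-0.11). With 1 library left out the range crossed 0 for GAS5 (-0.24 to 0.045), MALAT1 (-0.33 to 0.60), MIR155HG (-0.066 to 0.18), MIR22HG (-0.15 to 0.11), MIR600HG (-0.13 to 0.13), SNHG12 (-0.089 to 0.077), SNHG16 (-0.028 to 0.17), SNHG5 (-0.080 to 0.43), LINC00431 (-0.60 to 0.094), STARD7 (-0.0031 to 0.087), PXN (-0.22 to 0.14), FBXL19 (-0.0029 to 0.23) and LENG8 (-0.25 to 0.073). The cause was not tested. Depth limits members with few reads most, and 69 members had under 10 reads in APRIL column 3.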

Other observations

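LINC01128 and LINC00667, noticed after their values were seen, kept a nearly constant ratio of recovered reads in all 8 libraries. With APRIL, LINC01128 had 21, 36, 8 and 32 reads and LINC00667 had 34, 57, 13 and 50. In control they had 21, 17, 11 and 28, and 32, 27, 19 and 42, so the ratio lay between 0.579 and 0.667 throughout. They are annotated on chromosomes 1 and 18 in GENCODE, and whether the authors' counting gave shared reads to both was not tested.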
